A study of Mus musculus with 9 samples.

Results

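Peroxiredoxin, thioredoxin and sulfiredoxin genes were examined in RNA sequencing of mouse liver. The genes were chosen by name, as the rows of the count table whose symbol is Prdx1, Prdx2, Prdx3, Prdx4, Prdx5, Prdx6, Txn1, Txn2, Txnrd1 or Srxn1, which gave 10 genes of the 56748 in the table. Peroxiredoxins are enzymes that reduce hydrogen peroxide and organic peroxides through a reactive cysteine. Thioredoxin returns most of them to the reduced state, thioredoxin reductase then recharges thioredoxin with electrons from NADPH, and sulfiredoxin rescues peroxiredoxins whose cysteine has been over-oxidised. The family is spread over the cell, with Prdx1, Prdx2 and Prdx6 mainly in the cytosol, Prdx3 in mitochondria, Prdx4 in the endoplasmic reticulum (ER) and Prdx5 in several compartments.

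The study asked how prolonged oral dosing with indirubin, a dye compound of the herbal preparation indigo naturalis, affects the liver of mice with chronic colitis. Bulk RNA of liver tissue was sequenced from 9 C57BL/6J mice (C57BL/6 in the sample labels) in 3 groups of 3. The DSS mice had 3 cycles of 1.8% dextran sulfate sodium (DSS), a polymer that injures the colon when drunk, each a week of DSS and a week of recovery, and were given 200 µL of sterile water by mouth daily. The Indirubin mice had the same DSS cycles and received 1 g/kg/day of indirubin in 200 µL of sterile water. The Control mice received 200 µL of sterile water and are labelled with water as their treatment, but the design text speaks of colitis induction for the mice in general, so their freedom from DSS rests on that label. No group received indirubin without DSS, and the comparison of Indirubin with Control therefore holds both agents together.

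The libraries held 6514863 to 7944684 counts, of which 71.6% to 91.3% were mitochondrial transcripts. This left 569044 to 2132208 nuclear counts, and the highest nuclear totals were in DSS-3, Indirubin-2 and Indirubin-3. All 10 hepatocyte markers examined (among them Alb, Apoa1 and Ttr) were detected in each group, with a summed level of 8210 to 19050.5 CPM, counts scaled to 1 common library size. Indirubin-2 and Indirubin-3 also carried pancreatic acinar transcripts such as Ctrb1 and Cpa1, at summed levels of 655 and 876 CPM against at most 19.7 in the other 7 libraries, and these 2 libraries were high in hemoglobin and neutrophil transcripts too. The part of these libraries in each result was not tested, and Prdx4, Prdx1 and the ER genes are also given with Indirubin-1 as the only treated library. In bulk tissue, fewer cells of a type and less RNA per cell cannot be told apart.

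All 10 genes were detected in all 9 libraries. Their levels relative to transcript length were read from FPKM, the deposited values in which the authors divided the reads of a gene by its length and by a size set for the library. That size was not the total count. Worked back from the counts, it was 12346749 in DSS-3 and 5453085 in Control-1, where the totals were 7732871 and 7122519. The order of genes within a library does not depend on it, but FPKM differences between libraries do. Txn1, the cytosolic thioredoxin, had the highest median over the 9 libraries at 32.2 FPKM, and ranged from 15.7 to 42.5. Prdx1, the abundant cytosolic peroxiredoxin, followed at a median of 17.8 FPKM, and Prdx5 at 15.7. These 3 genes filled the first 3 places in 7 of the 9 libraries, but Prdx1 and Txn1 exchanged the first place from library to library, so their order did not exceed the spread. In the middle stood Prdx6, a peroxiredoxin that uses glutathione and also acts on phospholipids, at 8.49 FPKM, then mitochondrial Prdx3 at 6.38, Prdx2 at 5.11 and mitochondrial thioredoxin Txn2 at 3.92. The lowest medians were those of Prdx4 (2.83 FPKM), sulfiredoxin Srxn1 (2.11) and the cytosolic reductase Txnrd1 (1.66). Neighbours in this order overlapped in their ranges throughout.

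**Figure D1:**
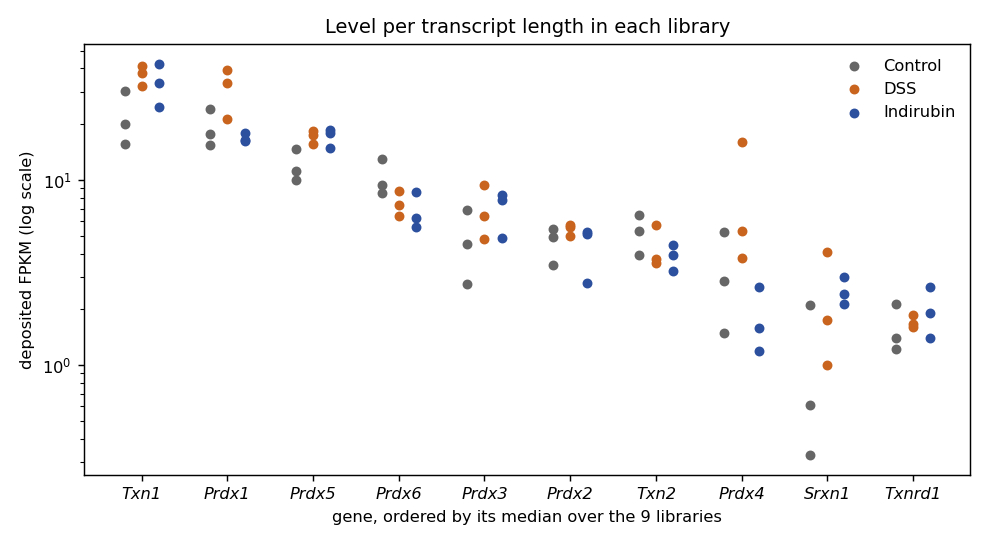
Deposited FPKM (vertical axis, log scale) of each gene in each library, with the genes ordered by their median over 9 libraries and the groups in separate colours. Txn1, Prdx1 and Prdx5 sit at the top, and Prdx4 and Srxn1 spread furthest, with ratios of highest to lowest library of 13.5 and 12.5.

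Prdx4 and Srxn1 varied most between libraries. The ratio of the highest to the lowest library was 13.5 for Prdx4 and 12.5 for Srxn1, and between 1.86 (Prdx5) and 3.42 (Prdx3) for the other 8. Prdx4 ranked between the third and the tenth of the 10 genes depending on the library. Srxn1, in contrast, was always among the 3 lowest, and its wide ratio came from 5 and 11 counts in Control-1 and Control-2.

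The first comparison set Indirubin against DSS, both groups having had colitis, and asked what dosing with indirubin added. Of the 10 genes, 3 had positive and 7 negative log2 fold changes, where 56.8% of all 9117 genes tested were positive, and the median was -0.16 beside 0.15 over all genes. Scaled by library size alone, 8 of the 10 were positive, with a median of 0.15 beside 0.43 over all genes. None passed an adjusted p of 0.05 in the quasi-likelihood test of edgeR, the p-values of which were adjusted by the Benjamini-Hochberg method over all genes tested, where 0% of all genes passed, and none passed in the Wald test of DESeq2, which called 80 genes in all. At an unadjusted p under 0.05, Prdx4 and Prdx1 were lower, 2 of 10 genes, against 3.22% of all genes tested. The same 2 genes had every Indirubin library below every DSS library, which held for 5.92% of all genes. Fold changes and levels in the rest of the text are on a CPM scale normalised by the TMM method.

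Prdx4 (ENSMUSG00000025289, chromosome X, 154106914 to 154123750, minus strand, GRCm39) encodes the secretory-pathway peroxiredoxin, which uses peroxide made during protein folding to form disulfide bonds. It stood at 8.42, 11.2 and 38.3 CPM in DSS-1, DSS-2 and DSS-3. In Indirubin-1, Indirubin-2 and Indirubin-3 it stood at 5.69, 2.70 and 3.54 CPM, and in Control-1, Control-2 and Control-3 at 3.31, 12.5 and 6.09 CPM. DSS-3 stood far above the other libraries, with 419 counts, while the 3 Indirubin libraries were close together and all below the lowest DSS library. The means were 3.98 ± 1.54 CPM with indirubin and 19.3 ± 16.5 with DSS (SD, n = 3). The log2 fold change was -2.30 with a standard error (SE) of 0.61, a level 0.203 times that of DSS, and the adjusted p was 0.433 by edgeR. By its p-value Prdx4 was gene 54 of the 9117 tested.

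The size of this difference rested on DSS-3 and its call on the filter for low counts. Without DSS-3 the log2 fold change of Prdx4 was -1.32 (adjusted p = 0.502 by edgeR). With Indirubin-1 as the only treated library it was -1.77. When no genes with low counts were removed, Prdx4 passed with an adjusted p of 0.00671 in edgeR's quasi-likelihood test. In that fit the p-values followed a normal distribution of the fold change over its SE. The spread between the libraries of Prdx4 itself thus carried no weight, and the call does not measure it. CPM scaled by the total count alone, 9.24, 9.61 and 54.2 for DSS against 4.64, 4.91 and 5.28 for Indirubin, also showed no overlap.

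Prdx1 (ENSMUSG00000028691, chromosome 4, 116542741 to 116558019, plus strand) was at 68.2, 119 and 114 CPM in DSS-1, DSS-2 and DSS-3. The Indirubin libraries held 51.0, 58.5 and 52.1 CPM, a narrow band, and the Control libraries 78.2, 53.2 and 55.0. All Indirubin libraries were thus below all DSS libraries and inside or just under the range of Control. The mean was 53.9 ± 4.04 CPM with indirubin against 100.5 ± 28.1 with DSS (SD, n = 3), with a log2 fold change of -0.90 (SE 0.39) and a level 0.537 times that of DSS. The adjusted p was 0.628 by edgeR. Each library left out in turn gave log2 fold changes from -1.23 to -0.81, and Indirubin-1 as the only treated library -0.97 (SE 0.58). Scaled by the total count instead, Prdx1 overlapped between the groups, at 74.8, 103 and 161 CPM with DSS and 41.6, 106 and 77.7 with indirubin. Scaled by the nuclear count, it did not overlap.

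**Figure D2:**
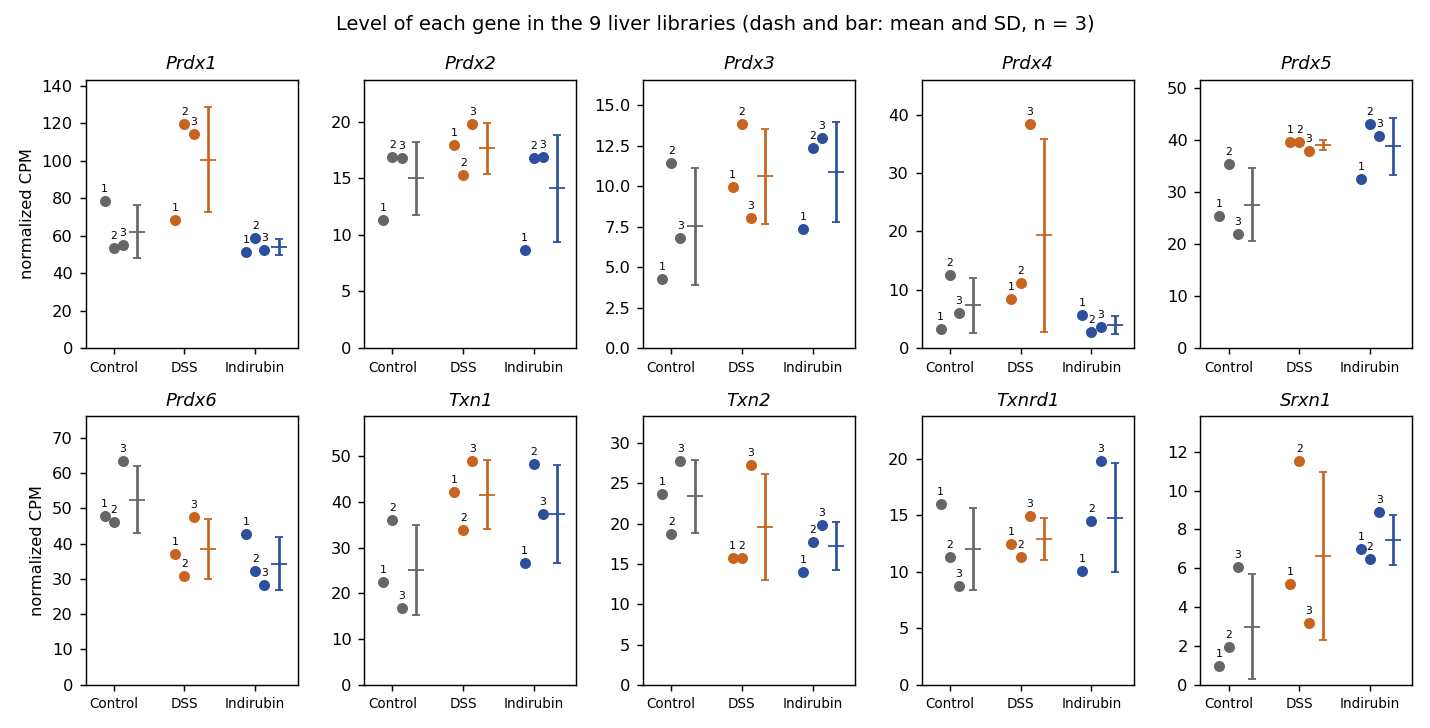
Level of each gene in normalised CPM (vertical axes, each starting at 0) for the 3 Control, 3 DSS and 3 Indirubin libraries, numbered by replicate, with the mean and SD of each group beside the points (n = 3). Prdx4 and Prdx1 are the genes whose 3 Indirubin points all lie below the 3 DSS points, and DSS-3 carries the high mean of Prdx4.

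The sequence upstream of the start of transcription was read from RefSeq windows on the older build GRCm38.p6, since the deposited coordinates are on GRCm39. A window of 250 bases before the start was present for 9 of the 10 genes. The core of the antioxidant response element, TGACNNNGC on either strand, through which the factor NRF2 acts on many redox genes, occurred in 2 of these 9 genes (22.2%), Prdx1 and Txnrd1, against 11.5% of 27025 genes, 27.3% of the 11 ER genes and 20% of 15 other NRF2 targets described later. Of the 3 windows of Txnrd1, 1 held a match. The stretches around these matches are shown because both genes belong to the same redox relay, with the match in capitals as it reads on the strand of the gene, that is, as the reverse complement of the element.
Prdx1, chr4:116685430-116685509, plus strand, match 124 bases before the start: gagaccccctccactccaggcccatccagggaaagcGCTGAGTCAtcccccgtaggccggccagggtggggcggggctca
Txnrd1, chr10:82859078-82859157, plus strand, match 83 bases before the start: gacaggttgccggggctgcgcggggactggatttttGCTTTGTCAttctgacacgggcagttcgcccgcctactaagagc

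The ER stress response element, CCAAT and CCACG with 9 bases between them on either strand, was searched because Prdx4 works in the ER. It occurred in none of the 9 genes with a window, in 2 of the 11 ER genes (18.2%, Pdia6 and Ero1b) and in 0.13% of all genes. Its last 5 letters, CCACG, alone occurred in 8 of the 9 (88.9%), in 63.6% of the ER genes, in 40% of the NRF2 targets and in 31% of all genes. Prdx4 held these letters on both strands at overlapping positions, shown in capitals in its window. Of the genes with the core of the antioxidant response element, Prdx1 had a log2 fold change of -0.90 and Txnrd1 of 0.20 between Indirubin and DSS.
Prdx4, chrX:155338470-155338549, minus strand, overlap 45 bases before the start: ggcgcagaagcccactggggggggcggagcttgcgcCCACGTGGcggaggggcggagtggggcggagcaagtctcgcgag

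The other 8 genes overlapped between Indirubin and DSS, with log2 fold changes between -0.32 and 0.20. Prdx2 (ENSMUSG00000005161, chromosome 8, 85696216 to 85701463), a cytosolic peroxiredoxin also abundant in red blood cells, had 17.9, 15.2 and 19.7 CPM in the DSS libraries and 8.63, 16.8 and 16.8 in the Indirubin libraries. Its low Indirubin value was that of Indirubin-1, and its log2 fold change was -0.32 (SE 0.41). Among the Indirubin libraries the erythroid markers were lowest in Indirubin-1 too. The 8 markers summed to 167 CPM in Indirubin-1 and to 677 and 651 in Indirubin-2 and Indirubin-3, compared with 148 to 256 with DSS and 112 to 267 in Control. Among the DSS libraries, DSS-2 had the highest sum, 256 CPM, and the lowest Prdx2, 15.2 CPM. All 8 erythroid markers were detected in the Indirubin group, and 1 of 8 was at 0 throughout DSS and 2 of 8 throughout Control. Their part in the level of Prdx2 was not tested. The span of Prdx2 also overlaps Junb and Rnaseh2a on the opposite strand, and Junb had 3 to 28 counts in 7 libraries but 215 and 181 in Indirubin-2 and Indirubin-3. Whether the counting used strand is not given in the sources used here, so reads of Prdx2 and Junb could be mixed.

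Prdx5 (ENSMUSG00000024953, chromosome 19, 6884065 to 6887474) had the most even level of the family. It stood at 39.6, 39.5 and 37.8 CPM in the DSS libraries and at 32.5, 42.9 and 40.7 in the Indirubin libraries. Its log2 fold change was -0.01 (SE 0.36, adjusted p = 0.996 by edgeR), with means of 38.7 ± 5.495 CPM with indirubin and 39.0 ± 0.988 with DSS (SD, n = 3). The span of Prdx5 overlaps Trmt112 on the opposite strand, which had 0 to 59 counts.

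Prdx3 (ENSMUSG00000024997, chromosome 19, 60852489 to 60862994), the mitochondrial peroxiredoxin, had 9.96, 13.8 and 8.04 CPM with DSS and 7.34, 12.4 and 12.96 with indirubin. Txn2 (ENSMUSG00000005354, chromosome 15, 77799247 to 77813206), the thioredoxin that serves Prdx3, had 15.8, 15.8 and 27.2 CPM with DSS and 14.0, 17.8 and 19.9 with indirubin. The groups overlapped for both mitochondrial genes, with log2 fold changes of 0.05 (SE 0.44) and -0.19 (0.40).

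Txn1 (ENSMUSG00000028367, chromosome 4, 57943373 to 57956411) had 42.1, 33.8 and 48.9 CPM with DSS and 26.6, 48.2 and 37.3 with indirubin, a log2 fold change of -0.15 (SE 0.39). Its reductase Txnrd1 (ENSMUSG00000020250, chromosome 10, 82669785 to 82733546) had 12.4, 11.3 and 14.9 CPM with DSS and 10.1, 14.5 and 19.8 with indirubin, a log2 fold change of 0.20 (SE 0.41). Within each library the FPKM of Txnrd1 was 0.0439 to 0.106 times that of Txn1, so the thioredoxin transcript exceeded that of its reductase in every library.

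Prdx6 (ENSMUSG00000026701, chromosome 1, 161067682 to 161078789) had 37.0, 30.8 and 47.4 CPM with DSS and 42.6, 32.1 and 28.2 with indirubin, with a log2 fold change of -0.16 (SE 0.38). Srxn1 (ENSMUSG00000032802, chromosome 2, 151947436 to 151953296) had 5.22, 11.5 and 3.20 CPM with DSS and 6.98, 6.47 and 8.90 with indirubin, with a log2 fold change of 0.18 (SE 0.55). In both genes the groups lay inside one another's range or nearly so.

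The second comparison set DSS against Control and asked what colitis was accompanied by in the liver. Here 8 of 10 log2 fold changes were positive and 2 negative (Prdx6 and Txn2), with a median of 0.55 beside 0.01 over the 7482 genes tested, of which 50.6% were positive. No gene of the 10 passed an adjusted p of 0.05 by edgeR's quasi-likelihood test, which 0.708% of all genes did, nor by the Wald test of DESeq2. At an unadjusted p under 0.05, Prdx4, Txn1 and Prdx1 were higher, 3 of 10, against 3.48% of all genes tested. Prdx5 was the 1 gene of 10 whose DSS libraries all lay above all Control libraries, which held for 7.1% of all genes. This count depended on the scale. Scaled by the total count, 7 of 10 genes were higher without overlap (Prdx1 to Prdx5, Txn1 and Srxn1), against 20% of all genes. Scaled by the nuclear count, these were Prdx1 and Txn1, against 6.68% of all genes, and Prdx5 overlapped. These counts share the DSS libraries with the first comparison, so the 2 sets of values are not independent.

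**Figure D3:**
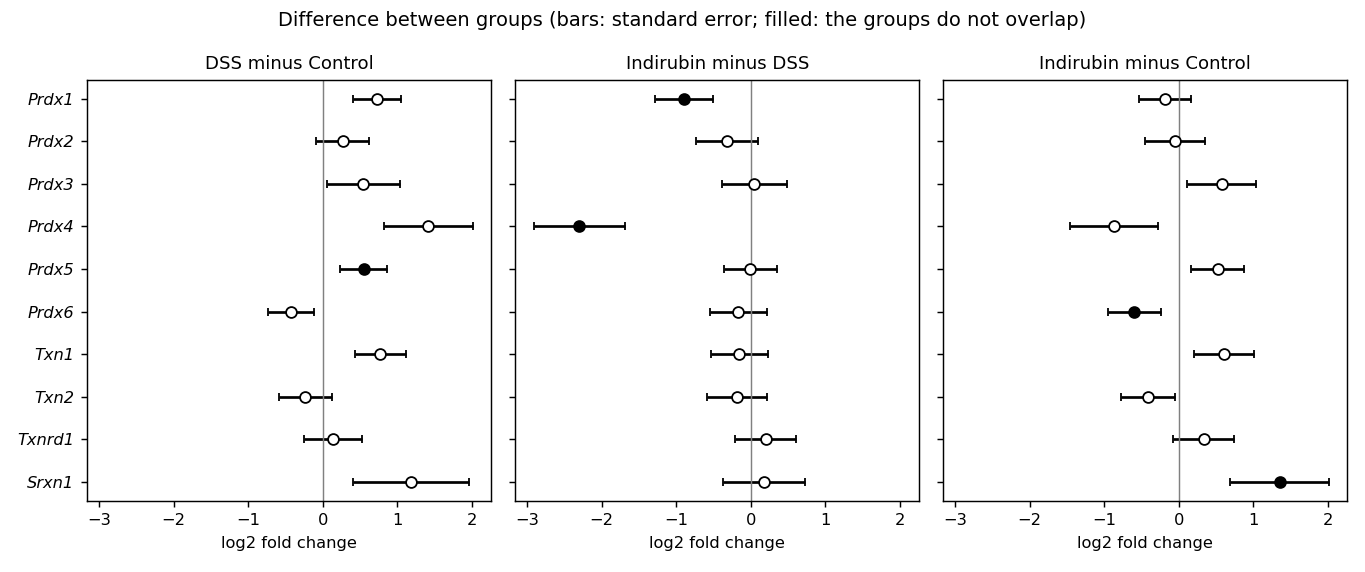
Log2 fold change of each gene in the 3 comparisons (horizontal axes), with bars of 1 standard error from edgeR's quasi-likelihood fit. Filled points mark genes whose groups do not overlap on the TMM scale, which are Prdx5 for DSS minus Control, Prdx1 and Prdx4 for Indirubin minus DSS, and Prdx6 and Srxn1 for Indirubin minus Control. Scaled by the nuclear count, Prdx5, Prdx6 and Srxn1 overlap in these comparisons.

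Prdx4 had a log2 fold change of 1.42 between DSS and Control (SE 0.59, adjusted p = 0.579 by edgeR). Control-2, at 12.5 CPM, was above both DSS-1 and DSS-2, so the groups overlapped. The log2 fold change was 0.50 without DSS-3 and 2.02 without Control-2. Txn1 had Control levels of 22.4, 36.1 and 16.8 CPM, and its log2 fold change was 0.77 (SE 0.34, adjusted p = 0.630 by edgeR). Control-2 was above DSS-2 in this gene too. Prdx1 had a log2 fold change of 0.73 (SE 0.32, adjusted p = 0.631 by edgeR), with Control-1 above DSS-1.

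Prdx5 had Control levels of 25.3, 35.4 and 21.9 CPM, all below its DSS levels. The log2 fold change was 0.55 (SE 0.31), and an adjusted p of 0.799 by edgeR, so a separation without overlap did not come with a small p. Srxn1 had Control levels of 0.973, 1.94 and 6.09 CPM, from 5, 11 and 25 counts. Its log2 fold change was 1.19 with a SE of 0.78, and Control-3 exceeded DSS-1 and DSS-3. Without Control-3 the value was 2.17, without DSS-2 it was 0.51 and without Control-1 it was 0.73. Among the other genes, Prdx3 had Control levels of 4.28, 11.4 and 6.82 CPM (log2 fold change 0.55, SE 0.49), and Prdx2 of 11.3, 16.9 and 16.8 (0.27, SE 0.35).

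Txnrd1 had Control levels of 16.0, 11.3 and 8.77 CPM and a log2 fold change of 0.14 (SE 0.39). The genes with negative values were Prdx6, with Control levels of 47.9, 46.2 and 63.3 CPM (-0.42, SE 0.31), and Txn2, with 23.7, 18.7 and 27.8 CPM (-0.23, SE 0.36). Txnrd1, Prdx6, Txn2, Prdx3 and Prdx2 all overlapped between DSS and Control. When libraries were scaled by total counts alone, the median of all genes moved to 0.70, and Prdx6 and Txn2 then had values of 0.33 and 0.54, below that median, while the median of the 10 genes was 1.16.

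The third comparison set Indirubin against Control, so that colitis and dosing differed together. It shares libraries with both comparisons before it. Log2 fold changes were positive in 5 genes and negative in 5, with a median of 0.14 beside 0.13 over 8059 genes, of which 55.5% were positive. Scaled by library size alone, 9 of the 10 were positive, with a median of 1.204 beside 1.11 over all genes. No gene of the 10 passed an adjusted p of 0.05 by edgeR's quasi-likelihood test or by the Wald test of DESeq2, compared with 0.236% of all genes by edgeR. None had an unadjusted p under 0.05 either, which 13.8% of all genes had. Srxn1 was higher without overlap, 1 of 10 against 12.2% of all genes, and Prdx6 lower without overlap, 1 of 10 against 9.32%. On the other scales these genes changed. Prdx6 overlapped when scaled by the total or by the nuclear count, Srxn1 overlapped by the nuclear count, and Prdx5 was higher without overlap by both, where 29.9% and 14.3% of all genes were.

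Srxn1 had a log2 fold change of 1.35 (SE 0.66, adjusted p = 0.397 by edgeR), which was 2.34 without Control-3 and 0.90 without Control-1. Its 3 Indirubin libraries, with 38, 79 and 103 counts, lay at 6.47 to 8.90 CPM, just above Control-3 at 6.09. Prdx6 had a log2 fold change of -0.59 (SE 0.35, adjusted p = 0.502 by edgeR), or -0.91 without Indirubin-1, and its highest Indirubin library, at 42.6 CPM, was a little below the lowest Control library at 46.2. Prdx4 had a value of -0.86 (SE 0.59), which was -0.26 without Control-2, -1.33 without Indirubin-1 and -0.020 with scaling by library size alone, and Prdx1 of -0.18 (0.35), both overlapping with Control. The values of the other genes were 0.61 for Txn1, 0.57 for Prdx3, 0.52 for Prdx5, 0.33 for Txnrd1, -0.42 for Txn2 and -0.05 for Prdx2.

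Prdx4 works beside the protein disulfide isomerases and oxidases of the ER, which insert and rearrange disulfide bonds in secreted proteins. Of 11 such genes, 10 passed the filter on low counts, and Ero1a did not. Between Indirubin and DSS, 9 of the 10 had negative log2 fold changes, with a median of -1.04 beside 0.15 over all genes. None passed the adjusted test by edgeR or by the Wald test of DESeq2. At an unadjusted p under 0.05, 5 of 10 were lower, against 3.22% of all genes, but none were when libraries were scaled by size alone, where 8 of 10 were negative with a median of -0.76 beside 0.43 over all genes. P4hb, Pdia4, Pdia6, Txndc5, Txndc11 and Erp44, 6 of 10, had every Indirubin library below every DSS library on the TMM scale, against 5.92% of all genes. This count was not taken on the other scales and depends on the scale. P4hb had 929 of 6553417 counts in DSS-2 and 1316 of 6722579 in Indirubin-2, so by total count its groups overlapped.

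Txndc5, a thioredoxin-like isomerase of the ER, had a log2 fold change of -1.30 (SE 0.46, adjusted p = 0.500 by edgeR), and Pdia6 one of -1.14 (SE 0.43, adjusted p = 0.529 by edgeR). P4hb, the main protein disulfide isomerase, stood at 171, 165 and 356 CPM with DSS and at 137, 108 and 154 with indirubin. Tmx1, a membrane-bound isomerase, was the exception among the 10 tested, with a value of 0.57 (SE 0.54). With no filter on low counts 2 of 11 were positive. Ero1a, which the filter removed, stood at 0.711, 0 and 0.914 CPM with DSS and at 0.734, 2.46 and 4.23 with indirubin. The FPKM of Prdx4 was 0.0669, 0.0921 and 0.146 times that of P4hb in the DSS libraries and 0.0563, 0.0341 and 0.0312 times in the Indirubin libraries, so Prdx4 was lower relative to P4hb as well, without overlap. In Control the same ratio was 0.0283, 0.0947 and 0.0805.

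DSS-3 stood apart in these genes as it did in Prdx4. The median of the 10 ER genes, as the difference from the Control mean of log2(CPM + 1), was 0.11, 0.63 and 1.02 in DSS-1, DSS-2 and DSS-3. It was -0.46, -0.42 and -0.08 in the Indirubin libraries and 0.13, 0.14 and -0.27 in Control. Without DSS-3 the median log2 fold change between Indirubin and DSS was -0.70 over 11 genes, of which 8 were negative and none had an unadjusted p under 0.05. With Indirubin-1 as the only treated library the median was -1.12, with 9 of 10 negative, and 1 gene in place of 5 had an unadjusted p under 0.05.

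**Figure D4:**
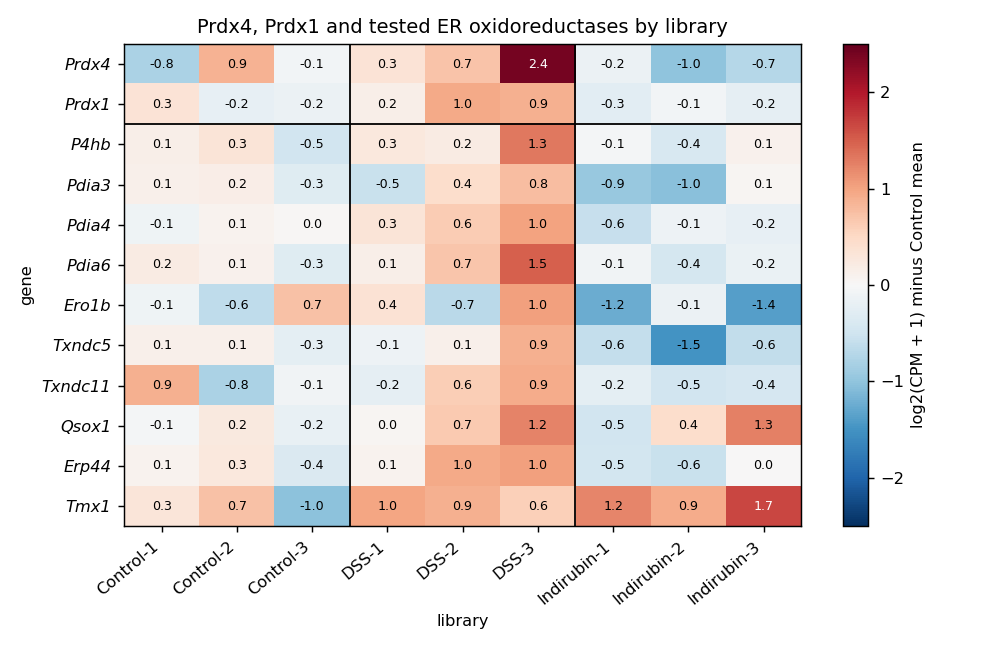
Difference of log2(CPM + 1) from the Control mean (colour, with the value in each cell) for Prdx4, Prdx1 and the 10 tested ER oxidoreductases (rows) in the 9 libraries (columns). DSS-3 is the highest library for Prdx4 and for most of the ER genes, and Tmx1 is the row that is above the Control mean in all Indirubin libraries.

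Other values differed between these libraries as well. The 10 hepatocyte markers summed to 9781, 11457 and 19050.5 CPM in DSS-1, DSS-2 and DSS-3, to 8210 to 10477.0 with indirubin and to 11231 to 18600.3 in Control, with no marker at 0 throughout a group. DSS-3 also had a mitochondrial share of 72.4%, near that of Indirubin-2, and their part in the level of Prdx4 was not tested. Of the 10 acinar markers, 8 were at 0 in all DSS libraries, and the sum was 0 to 3.08 CPM with DSS, 8.46 to 19.7 in Control and 9.55 to 876 with indirubin. The 6 lymphocyte markers summed to 22.4, 6.91 and 3.75 CPM in DSS-1, DSS-2 and DSS-3, with 1 of 6 at 0 in all DSS libraries, to 2.21 to 10.1 with indirubin and to 1.95 to 7.05 in Control. Of the other lists, 3 did not overlap between Indirubin and DSS and were higher with indirubin. The 10 macrophage markers summed to 158 to 179 CPM with DSS and 199.8 to 257 with indirubin, the 6 sinusoidal endothelial markers to 20.03 to 38.8 and 42.7 to 56.6, none of them at 0 throughout a group. The 8 neutrophil markers summed to 11.5 to 17.4 and 25.3 to 242, with 3 at 0 in all DSS libraries and 1 in all Indirubin libraries. Of the 10 macrophage markers, 6 had positive and 4 negative log2 fold changes, while all 6 endothelial markers had positive ones. The sum of the 5 cholangiocyte markers was lower with indirubin without overlap, at 8.59 to 13.3 CPM with DSS and 4.77 to 8.28 with indirubin, with none at 0 throughout either group. Only 2 of these 5 were tested, 1 with a positive and 1 with a negative value. Spp1 made up most of the sum in each DSS library, at 5.10, 11.9 and 6.67 CPM against 1.29, 4.92 and 0.605 with indirubin. The 6 stellate cell and fibroblast markers overlapped, at 59.4 to 93.9 and 83.4 to 165 CPM. The part of these cells in the levels of Prdx4 and the ER genes was not tested.

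In DSS against Control all 10 tested ER genes had positive values, with a median of 0.71. Pdia4 was the 1 without overlap, against 7.1% of all genes, and 3 had an unadjusted p under 0.05, against 3.48%. Pdia6 had a log2 fold change of 0.91 (SE 0.35, adjusted p = 0.494 by edgeR). Without DSS-3, 9 of 10 were positive, the median was 0.36 and none had an unadjusted p under 0.05. Against Control, the Indirubin libraries had negative values in 8 of the 10, with a median of -0.30. Of the 10, 2 were lower without overlap, against 9.32% of all genes, and 1 higher, against 12.2%. Txndc5 was among the lower at -0.91 (SE 0.40, adjusted p = 0.332 by edgeR), and Tmx1 was the higher at 1.43 (SE 0.69, adjusted p = 0.393 by edgeR). Scaled by library size alone, 9 of the 10 were positive with a median of 0.67, beside a median of 1.11 over all genes.

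Relatives of thioredoxin and glutaredoxin, which share the fold or reverse other cysteine oxidations, showed no common direction. Of 19 such genes, 16 were tested, and their medians were 0.12 for DSS against Control, -0.09 for Indirubin against DSS and -0.09 for Indirubin against Control. None passed the adjusted test by edgeR in any of the 3 comparisons, and 1 of 16 had an unadjusted p under 0.05 in each, higher for DSS against Control (3.48% of all genes), lower for Indirubin against DSS (3.22%) and higher for Indirubin against Control (13.8% in either direction). Txndc9, a thioredoxin-like protein that works with a chaperonin, had values of 1.04 (SE 0.47) and -0.87 (0.53) in the first 2 of these, each without overlap. Sesn1, a sestrin linked to the repair of over-oxidised peroxiredoxins, had a value of 2.27 between Indirubin and Control (SE 0.76, adjusted p = 0.197 by edgeR). It stood at 1.84, 5.74 and 11.8 CPM in Indirubin-1, Indirubin-2 and Indirubin-3, and at 1.17, 1.23 and 1.70 in Control, from 6, 7 and 7 counts. Indirubin-1 was thus close to Control, and the higher levels were in the libraries with acinar transcripts, whose part was not tested. Txnip, an inhibitor of thioredoxin, overlapped between Indirubin and DSS at 0.76 (SE 0.49), and Msra, which repairs oxidised methionine, had a value of -1.001 (SE 0.45).

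Prdx1, Txnrd1 and Srxn1 are themselves textbook targets of NRF2, so 18 other targets were read beside them. Between Indirubin and DSS 14 were tested, 6 with positive and 8 with negative values, and the median was -0.15. None passed the adjusted test by edgeR, and 2 had an unadjusted p under 0.05, both higher, against 4.45% of all genes. These were Hmox1, the heme oxygenase, at 1.79 (SE 0.46, adjusted p = 0.433 by edgeR), and Gsr, the glutathione reductase, at 1.37 (SE 0.45, adjusted p = 0.478 by edgeR). Hmox1 stood at 7.47, 6.91 and 9.23 CPM with DSS and at 13.2, 33.9 and 34.4 with indirubin, highest in the libraries that were also rich in hemoglobin transcripts, whose part was not tested. In the same comparison the values were -0.90 for Prdx1, 0.20 for Txnrd1 and 0.18 for Srxn1. The catalytic subunit of glutathione synthesis, Gclc, had a value of -0.99 (SE 0.59). For DSS against Control the 14 tested targets had a median of -0.17, and for Indirubin against Control 13 had one of -0.28. At an unadjusted p under 0.05 in the latter, 3 were above Control and 3 below, against 13.8% of all genes in either direction. Gsr had a value of 1.501 (SE 0.39, adjusted p = 0.122 by edgeR) without overlap, and Hmox1 of 1.06 (SE 0.42, adjusted p = 0.286 by edgeR) with overlap. For Hmox1, Indirubin-1 at 13.2 CPM lay inside the Control levels of 13.4, 14.4 and 12.2. On the lower side Gclc had a value of -1.61 (SE 0.55, adjusted p = 0.210 by edgeR) with overlap, and Ephx1, an epoxide hydrolase, of -1.40 (SE 0.47, adjusted p = 0.198 by edgeR) without. Gclc stood at 19.3, 5.33 and 4.49 CPM in Indirubin-1, Indirubin-2 and Indirubin-3, and at 33.3, 36.6 and 18.5 in Control. Its low levels were thus in the libraries with acinar transcripts, whose part was not tested.

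NADPH, which feeds thioredoxin reductase, is made by a small set of dehydrogenases, of which 6 of 7 were tested. G6pdx, the first enzyme of the pentose phosphate pathway, had a log2 fold change of 1.36 between Indirubin and DSS (SE 0.60, adjusted p = 0.628 by edgeR), without overlap and higher. It was the 1 of 6 that was higher at an unadjusted p under 0.05, against 4.45% of all genes. Idh1, a cytosolic source of NADPH, had one of -1.12 (SE 0.41, adjusted p = 0.529 by edgeR), and Pgls of the same list one of -0.85 (SE 0.48, adjusted p = 0.770 by edgeR). These 2 of 6 were lower without overlap, against 5.92% of all genes. The list as a whole had 3 positive and 3 negative values. In DSS against Control the largest value was -0.66 for Idh2 (SE 0.46). None of the 6 was higher without overlap, beside 7.1% of all genes, and none was lower without overlap.

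The thioredoxin clients were mostly too low to test. Of 4, 3 were tested between Indirubin and DSS and 1 in each of the other comparisons. Map3k5, the kinase that thioredoxin holds inactive, had values of -1.26 (SE 0.82) for DSS against Control and 1.81 (0.79) for Indirubin against DSS.

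Likeness between genes was measured as the root mean square distance between log2 profiles over the 9 libraries, each centred on its own mean, and given as a description. Among the 10 genes, Prdx5 and Txn1 were the closest at 0.22, followed by Prdx3 and Prdx5 at 0.28 and by Prdx6 and Txn2 at 0.29. Prdx4 and Srxn1 were the furthest apart at 1.36. Of 9712 genes compared, the nearest to Prdx5 were Cdc42 (0.08), Rpl19 (0.10) and Tpt1 (0.13), and the nearest to Txn1 included the ribosomal protein genes Rps18 (0.16) and Rpl23 (0.18). Prdx1 was nearest to Clptm1l (0.22), Prdx6 to Atp5a1 (0.15) and Txnrd1 to Adk (0.16). Prdx4, which varied most among the genes compared in this way, was nearest to Smpd2, Tapbpl and Pdia5, at 0.45 to 0.46, and Pdia5 is another ER disulfide isomerase. The distance grows with a gene's own spread, so distances of different genes are not on a common footing.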

How the data were processed

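RNA was extracted with the RNeasy Plus Micro Kit, libraries were made from 400 ng and sequenced on a DNBSEQ platform. The submitters' processing notes name GRCm39. The aligner, counting program, annotation and strand setting are not given in the sources used here. The authors deposited whole-number counts per gene without normalization for 9 libraries, and FPKM made from them, which were used here for levels between genes. The table also holds group means of a normalized signal, log2 fold changes and p-values that the authors deposited for their own comparisons, none of which were used, nor were 3 deposited gene lists. The labels number the mice within a group, and p-values measure only the spread between these samples.

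Gene counts entered the quasi-likelihood test of edgeR 4.0.16 (R 4.3.3): TMM normalization, filterByExpr at its defaults (minimum count 10, minimum total 15), glmQLFit and glmQLFTest (two-sided), with the 6 libraries of each comparison and Benjamini-Hochberg adjustment over all genes tested. The filter was passed by all 10 genes in each of the 3 comparisons. The standard error is the size of the log2 fold change divided by the square root of F. Levels in CPM use 1 TMM scale over the 9 libraries, and folds come from the fits. With 3 libraries against 3, an exact permutation test of a single gene cannot go below p = 0.10. No overlap means that all 3 libraries of a group lie beyond all 3 of the other. A library's count of 0 allows up to 3 counts, and counting limits cover counting error only.

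The 10 genes and the other gene lists (thioredoxin and glutaredoxin relatives, ER oxidoreductases, NRF2 targets, NADPH supply, thioredoxin clients and cell type markers) were chosen with earlier results of these data known. All 10 genes are named. Of each other list up to 2 genes with the smallest p each way were eligible, and of nearest profiles the 3 closest genes for members with at least 10 counts in all libraries, of which some are printed. P4hb, Spp1, Ctrb1, Cpa1, the per-library levels of Hmox1, Sesn1, Gclc and Ero1a, and the genes without overlap were named after their values were seen. Alternatives were DESeq2 1.42.0 (size factors and Wald test), library size alone, no filter, at least 10 counts in every library, all 9 libraries in one fit, a replicate block, no mitochondrial genes and each library left out in turn. Indirubin-1 as the only treated library, the counts of the ER list under each setting and the groups without overlap on scales of the total and the nuclear count were added after the data were seen. Motifs were searched on both strands in the 250 bases before each start in RefSeq promoter windows. Figures were drawn with matplotlib 3.10.9.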

Additional observations from a re-analysis of the deposited data

How the results depend on the processing

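The count of genes passing an adjusted p of 0.05 depended on the setting. In DSS against Control 53 genes passed in the edgeR test as reported, 19 with library size only, 143 with the DESeq2 Wald test, 125 with no filter, 84 with at least 10 counts in every library, 11 with all 9 libraries in one fit and 12 to 64 with a library left out. In Indirubin against DSS the count was 0 as reported (700 at an unadjusted p under 0.05), and 2 with library size only, 80 with the Wald test, 156 with no filter, 2 with at least 10 counts, 4 with all 9 libraries and 0 to 134 with a library left out, the highest without Indirubin-1. In Indirubin against Control the count was 19 as reported, and 266, 316, 379, 72 and 56 under the same 5 settings, and 1 to 465 with a library left out, the highest again without Indirubin-1. Of the 10 genes, 1 (Prdx4) passed, in Indirubin against DSS with no filter, and none passed in any other setting or comparison. With no filter the p-values gave no weight to the spread of a single gene, as described for Prdx4 above. The cause of these shifts was not tested.

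Prdx4 kept a negative value in Indirubin against DSS under every setting, from -2.75 to -1.32 with a library left out, and Prdx1 kept a negative one from -1.23 to -0.57 over all settings. Library size only moved the median of all genes to 0.70, 0.43 and 1.11 in the 3 comparisons in the order DSS against Control, Indirubin against DSS and Indirubin against Control. It turned the sign of Prdx6 (0.33) and Txn2 (0.54) in the first, of Prdx2 (0.058), Prdx5 (0.35), Prdx6 (0.019), Txn1 (0.20) and Txn2 (0.090) in the second and of Prdx1 (0.82), Prdx2 (1.04), Prdx6 (0.35) and Txn2 (0.63) in the third. No filter gave Prdx3 -0.071 in the second, and at least 10 counts gave Prdx5 0.079 in the second and Prdx2 0.031 in the third. With Indirubin-1 as the only treated library, assumed to vary like the other group, Prdx3 was at -0.52, Prdx6 at 0.15 and Txnrd1 at -0.35 in the second, and Prdx3 at -0.042 and Txnrd1 at -0.26 in the third. Leaving out a library gave Txnrd1 -0.072 to 0.37 in the first. It gave Prdx3 -0.13 to 0.20, Srxn1 -0.17 to 0.75, Prdx6 -0.45 to 0.0079, Txn2 -0.43 to 0.12 and Txnrd1 -0.062 to 0.31 in the second and Prdx2 -0.26 to 0.056 in the third.

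Replicate numbers did not pair the samples: deviations of same-numbered samples correlated at -0.03 to 0.04 across genes. With the replicate block 30, 3 and 49 genes passed in the 3 comparisons, none of them among the 10 genes. At 569044 to 2132208 nuclear counts a library, genes such as Srxn1 in Control (5 to 25 counts) and Prdx4 (17 to 71 counts outside DSS-3) rest on few counts. Counting error and the spread between mice were not separated.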

Other observations

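Processed pseudogenes and close relatives that could share reads with these genes held few counts. Prdx2-ps1 had 16 counts over the 9 libraries, 7 in Indirubin-1 and 9 in Indirubin-2, and Prdx6-ps2 had 11. Txn-ps1, Prdx6b, Prdx2-ps2 and Prdx1-ps had none. The lncRNA gene Gm38560, the gene model Gm47073 and the protein-coding gene Eid3 lie within the span of Txnrd1 and had 0 to 23 counts in any library. Eid3 is on the same strand as Txnrd1, and Gm38560 and Gm47073 are on the opposite strand.

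The ratio of Prdx1 to Prdx6, the most abundant of the cytosolic peroxiredoxins here, was 2.58, 1.82 and 1.37 by FPKM in Control-1, Control-2 and Control-3. It was 2.91, 6.11 and 3.79 in the DSS libraries, all above Control, and 1.89, 2.88 and 2.92 in the Indirubin libraries, which overlap both groups. A ratio within a library does not depend on its scaling, but it does not say which of the genes differs.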
